A study of Mus musculus with 12 samples.

Results

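The 42 genes described here encode the proteins that copy DNA in S phase and the enzymes that supply its deoxynucleotides, measured by RNA sequencing in mouse embryonic fibroblasts. They were taken by gene symbol from both deposited tables, and all 42 were found among the 20844 genes listed in both (22114 and 21916 in each). The cells were primary fibroblasts isolated at embryonic day 13.5 to 14.5, homozygous for 1 of 2 inducible alleles, LSL-Nrf2D29H or CA-Keap1R554Q. Nrf2 (gene symbol Nfe2l2) encodes NRF2, a transcription factor that turns on antioxidant genes, and Keap1 encodes the adaptor that marks NRF2 for degradation. Adenovirus with Cre recombinase turned each mutant on, giving the groups Nrf2 D29H and Keap1 R554Q, and empty adenovirus gave the matching controls. In the empty-virus Nrf2 cells (Nrf2LSL/LSL) the gene is described as functionally knocked out, and in the empty-virus Keap1 cells (Keap1WT/WT) Keap1 is functionally wild type, although those cells carry the uninduced allele. All cultures were kept in DMEM lacking pyruvate, with 10% serum, infected at a multiplicity of 500 and collected 4 days after infection, with 3 libraries per group and 12 in all. No group combined cells without an inducible allele with Cre virus, so Cre and the mutant protein cannot be told apart in either comparison. The control of D29H is described as a functional knockout, so regained NRF2 and the D29H change cannot be told apart there. The labels do not say that the 3 libraries of a group came from separate embryos or cultures, so p-values measure the spread between these libraries, which may be technical.

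Replication starts when the origin recognition complex, CDC6 and CDT1 load the MCM2-7 ring, the core of the replicative helicase, onto origins in G1 (licensing). CDC45 and the GINS complex then activate the ring, DNA polymerase alpha with primase lays primers, polymerases delta and epsilon extend them on the PCNA clamp, RPA covers single strands, and FEN1 with DNA ligase 1 joins Okazaki fragments. Ribonucleotide reductase, thymidylate synthase and thymidine kinase 1 supply deoxynucleotides, and chromatin assembly factor 1 places histones on the new DNA. Many of these genes are known to be transcribed together at the G1/S boundary by E2F factors. In bulk RNA, fewer cells in S phase and less RNA per cell cannot be told apart.

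Promoters of these genes are shown for the E2F letters they hold. Since many replication genes are known E2F targets, the share that holds them is not independent of the choice of genes. RefSeq promoters of GRCm38.p6, from 250 bases before to 50 bases after the start site, were held for 35 of the 42 genes. An E2F-type match (TTTCCCGC, TTTGGCGC, TTTGCCGC or TTTCGCGC on either strand) was found in 14 of the 35 (40.0%) and in 2.60% of all 27025 genes with a promoter of this length. The CCAAT box was found in 62.9% of the 35 and in 41.1% of all genes. The CHR letters TTTGAA or TTCGAA, known from late cell cycle genes, were found in 7 of the 35 and in 21.7% of all genes. The antioxidant response element TGACNNNGC, the class of site NRF2 binds, was found in 8 of the 35 and in 14.0% of all genes. These matches describe letters in a window and no binding was measured. Stretches upstream of the start site follow for Mcm5 (chr8:75109336-75109415, plus strand), Mcm6 (chr1:128359725-128359835, minus strand) and Pola1 (chrX:93632234-93632313, minus strand), which fell in D29H cells, and for Orc1 (chr4:108579354-108579453, plus strand), Cdc6 (chr11:98907993-98908072, plus strand) and Gins3 (chr8:95633459-95633545, plus strand), which were not called in either comparison. Each is written 5′ to 3′ on the gene's strand, and capitals mark E2F-type matches.
Mcm5: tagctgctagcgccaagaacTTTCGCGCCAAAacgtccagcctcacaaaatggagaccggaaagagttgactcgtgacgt
Mcm6: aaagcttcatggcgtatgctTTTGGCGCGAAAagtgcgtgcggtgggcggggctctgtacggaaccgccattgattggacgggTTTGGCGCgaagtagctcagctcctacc
Pola1: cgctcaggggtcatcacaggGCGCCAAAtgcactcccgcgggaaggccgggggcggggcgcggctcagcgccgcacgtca
Orc1: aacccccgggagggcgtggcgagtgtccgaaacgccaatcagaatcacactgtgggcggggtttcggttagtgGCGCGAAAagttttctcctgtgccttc
Cdc6: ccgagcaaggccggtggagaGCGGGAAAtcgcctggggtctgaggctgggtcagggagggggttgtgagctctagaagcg
Gins3: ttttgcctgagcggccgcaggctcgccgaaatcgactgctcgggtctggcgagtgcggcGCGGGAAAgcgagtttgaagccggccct
In Mcm5 and in the first match of Mcm6 the capitals hold 2 overlapping matches on opposite strands. Of the 8 genes with a promoter that fell in D29H cells, 5 held an E2F-type match (Mcm3, Mcm5, Mcm6, Pola1 and Lig1), and 9 of the 27 others did (Orc1, Cdc6, Cdt1, Mcm7, Gins3, Pold1, Pold3, Pole2 and Rfc3). None of the 8 and 8 of the 27 others held the antioxidant response element letters. The split was not tested.

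Each library held between 14963004 and 23818477 counted reads, and the 42 genes took 0.177% to 0.265% of them. Levels below are CPM, reads of a gene scaled to a common total with 1 set of TMM factors over the 12 libraries. Nfe2l2, the gene silenced by the LSL allele, had 46.5, 40.1 and 41.2 CPM in the libraries labelled knockout and 49.6, 57.1 and 52.4 CPM in D29H, so the label could not be checked from the reads of this gene and the group is called labelled knockout. Of 7 NRF2 target genes, 6 rose in D29H and 7 in R554Q, while between the empty-virus groups 6 were lower and 1 higher in labelled knockout, with a median log2 difference of -0.67. The 10 fibroblast markers were present in every library and summed to 21917 to 22500.3 CPM in D29H, below the 23739 to 25889 CPM in labelled knockout, and to 19404 to 21956 CPM in R554Q and 20378 to 23199 CPM in Keap1 wild type, which overlapped. Of 10 macrophage markers 9 were listed in both tables, none under 0.5 CPM, and they summed to 154.9 to 169.8 CPM in D29H, 122.9 to 165.1 in labelled knockout, 68.2 to 80.6 in R554Q and 95.7 to 107.8 in Keap1 wild type. Markers of epithelial, endothelial, skeletal muscle, neural and erythroid cells summed to at most 70.9 CPM in any library. Neural markers summed to 64.0 to 70.9 CPM in R554Q and 54.7 to 61.2 CPM in wild type, without overlap. In labelled knockout they summed to 41.6 to 49.9 CPM, below each wild-type library. Epithelial markers summed to 3.27 to 4.32 CPM in labelled knockout and 6.03 to 7.96 CPM in wild type, also without overlap. The 2 of 5 skeletal muscle markers listed in both tables summed to 9.15 to 10.3 CPM in R554Q, below each wild-type library, the highest of which had 14.5 CPM. The part of these cells in the results below was not tested.

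In D29H cells 10 of the 42 transcripts fell against labelled knockout, and none rose. They were those of 5 of the 6 subunits of the MCM2-7 ring (Mcm2, Mcm3, Mcm4, Mcm5 and Mcm6), the catalytic subunit of polymerase alpha (Pola1), the large primase subunit (Prim2), the middle RPA subunit (Rpa2), DNA ligase 1 (Lig1) and the large subunit of ribonucleotide reductase (Rrm1). The falls were modest and alike in size, with log2 fold changes from -0.47 to -0.37, or 0.720 to 0.775 of the labelled-knockout level. Over all 14370 genes tested, 1.28% were called lower and 3.47% higher, a call being a Benjamini-Hochberg adjusted p under 0.05 in edgeR's quasi-likelihood fit. All 42 passed the filter on low counts, and 37 had a log2 fold change below zero, with a median of -0.21, beside 0.00 and 49.9% below zero over all genes tested. In 19 of the 42 every D29H library was below every labelled-knockout library and in none was it above. Over all genes tested, 12.9% were separated in the lower and 12.7% in the higher direction.

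**Figure D1:**
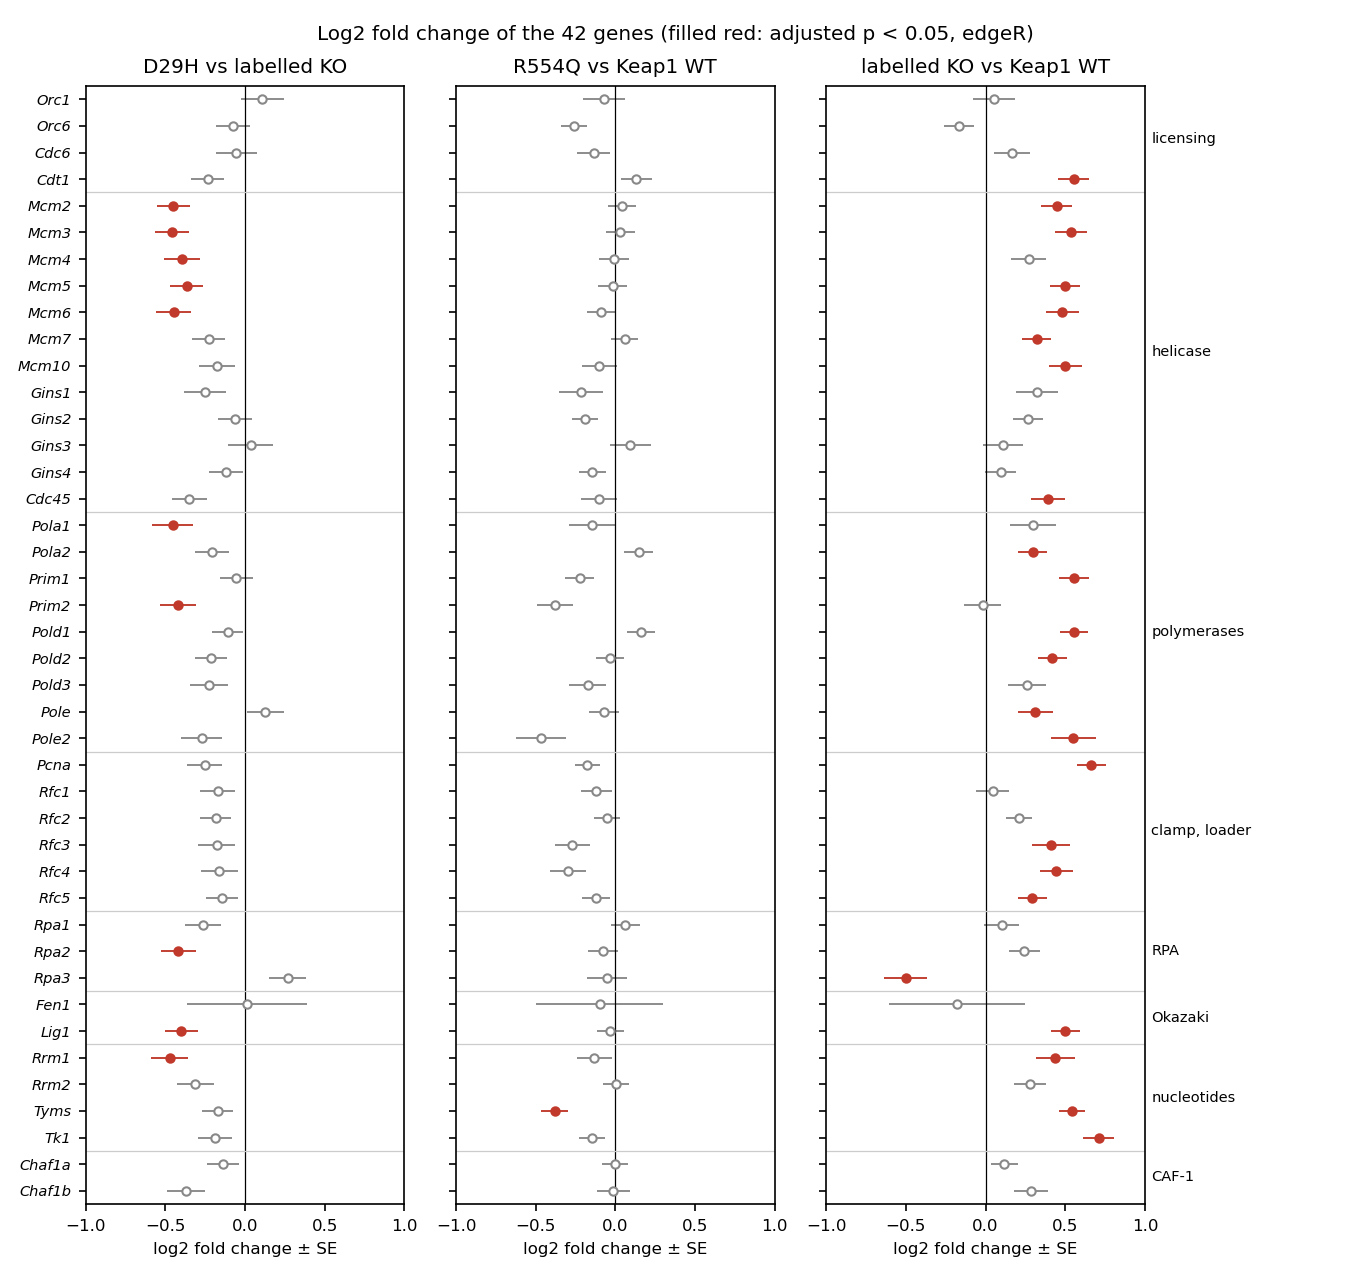
Log2 fold change ± SE (x axis) of each of the 42 genes (y axis, grouped by role) in D29H against labelled knockout, R554Q against Keap1 wild type and labelled knockout against Keap1 wild type, with 3 libraries per group. Filled red points passed an adjusted p under 0.05 in edgeR: 10 in the left panel, 1 in the middle panel and 23 in the right panel.

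The licensing factors were not called. Cdt1, which brings the MCM ring to origins, had 29.2, 32.8 and 31.0 CPM in D29H and 37.0, 33.7 and 38.7 CPM in labelled knockout (log2 fold change -0.23, SE 0.10, edgeR adjusted p 0.176). Its libraries did not overlap between the groups, but the distance was within what the test allows for. Cdc6, the ATPase that helps load the ring, had 14.9, 15.8 and 17.9 CPM in D29H and 15.8, 15.0 and 19.9 CPM in labelled knockout, overlapping ranges. Orc1, the largest subunit of the origin recognition complex, had 11.9, 9.87 and 12.3 CPM against 10.1, 9.64 and 12.1 CPM, also overlapping, with a log2 fold change of 0.11, and Orc6, another subunit, had -0.07.

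Of the 6 MCM2-7 ring genes 5 fell. Mcm2 (chromosome 6, 88883475 to 88898780, minus strand, mm10) had 76.2, 68.4 and 73.9 CPM in D29H and 87.8, 102 and 109 CPM in labelled knockout. Every D29H library lay below every labelled-knockout library, with a log2 fold change of -0.45 (SE 0.10, edgeR adjusted p 0.0147). Mcm3 (chromosome 1, 20802968 to 20820312, minus strand) had 71.7, 57.4 and 61.8 CPM against 80.3, 86.7 and 95.0 CPM. D29H replicate 1 was the highest of its group and labelled-knockout replicate 1 the lowest of its own, which brought these nearest to each other, and the log2 fold change came to -0.46 (SE 0.11; edgeR adjusted p 0.0150). Mcm6 (chromosome 1, 128331590 to 128359664, minus strand) had 65.7, 59.2 and 59.5 CPM against 72.7, 81.3 and 97.4 CPM (log2 fold change -0.45, SE 0.11, edgeR adjusted p 0.0204). Mcm5 (chromosome 8, 75109528 to 75128439, plus strand) had 74.9, 62.7 and 67.1 CPM against 81.2, 92.2 and 90.2 CPM (log2 fold change -0.37, SE 0.10, edgeR adjusted p 0.0372). In both, the groups again did not overlap, and D29H replicate 1 was again the nearest to the controls. Mcm4 (chromosome 16, 15623897 to 15637400, minus strand) had 47.8, 43.2 and 41.5 CPM against 49.4, 57.0 and 68.4 CPM, with a log2 fold change of -0.40 (SE 0.11) and an adjusted p of 0.0416 in edgeR, the nearest of the 10 to the threshold. Mcm7, the remaining ring subunit, had 87.0, 75.0 and 76.6 CPM against 85.0, 90.6 and 104 CPM. Its groups overlapped, and its log2 fold change, -0.23 (SE 0.10), was not called, at an adjusted p of 0.189.

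The proteins that join the ring at firing were not called. Cdc45 had a log2 fold change of -0.35 (SE 0.11), with an adjusted p of 0.0626 in edgeR, and its groups did not overlap. The 4 GINS genes had log2 fold changes from -0.25 in Gins1 to 0.04 in Gins3, and Mcm10, a factor that supports helicase activation, had -0.17. In all, 5 of the 12 helicase genes fell, and 7 of the 12 had groups that did not overlap.

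Of the 9 polymerase and primase genes, 2 fell. Pola1 (chromosome X, 93304767 to 93632155, minus strand) had 13.5, 13.5 and 12.1 CPM in D29H and 15.8, 16.9 and 20.9 CPM in labelled knockout (log2 fold change -0.46, SE 0.13, edgeR adjusted p 0.0388). Labelled-knockout replicate 3 stood highest, and the groups were separate also without it. Prim2 (chromosome 1, 33453810 to 33669795, minus strand) had 33.2, 26.8 and 25.1 CPM against 39.4, 37.5 and 36.9 CPM (log2 fold change -0.42, SE 0.11, edgeR adjusted p 0.0295). The partners of these subunits in the same complex had smaller values: Prim1, the catalytic primase subunit, -0.05, and Pola2, the accessory subunit of polymerase alpha, -0.21. Pole, the catalytic subunit of the leading-strand polymerase, had 30.3, 43.1 and 36.1 CPM against 32.6, 32.9 and 34.7 CPM, with D29H libraries on both sides of the controls. The polymerase delta genes Pold1, Pold2 and Pold3 had log2 fold changes of -0.11, -0.21 and -0.23, and Pole2 had -0.27, none called.

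No gene of the clamp or its loader was called. Pcna, the sliding clamp, had 185, 154 and 172 CPM in D29H and 221, 205 and 181 CPM in labelled knockout, so that 1 D29H library lay above the lowest control. Its log2 fold change came to -0.25 (SE 0.11; edgeR adjusted p 0.168). The 5 clamp loader genes (Rfc1 to Rfc5) had log2 fold changes from -0.18 to -0.14, all below zero and none called.

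Of the 3 RPA subunits 1 fell. Rpa2 (chromosome 4, 132768332 to 132778752, plus strand) fell from 29.4, 30.4 and 31.8 CPM in labelled knockout to 25.3, 20.4 and 22.8 CPM in D29H (log2 fold change -0.42, SE 0.11, edgeR adjusted p 0.0279). Rpa1, the largest subunit, had -0.26 (adjusted p 0.168). Rpa3, the smallest, had 25.4, 29.9 and 28.1 CPM in D29H and 26.0, 23.8 and 19.1 CPM in labelled knockout, the highest log2 fold change of the 42 (0.27, SE 0.12, adjusted p 0.174), with overlapping groups. Whether the subunits differ from each other was not tested.

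Lig1 (chromosome 7, 13277283 to 13311433, plus strand) was the most even of the called genes within the mutant group, at 45.8, 45.5 and 45.6 CPM in D29H and 52.5, 61.1 and 67.0 CPM in labelled knockout. Its log2 fold change came to -0.40 (SE 0.10; edgeR adjusted p 0.0270). Fen1, the flap endonuclease that works beside it, was counted at 242 reads over all 12 libraries, with 0.824, 0.898 and 1.08 CPM in D29H and 0.815, 0.545 and 1.57 CPM in labelled knockout, too few to resolve a change of this size (SE 0.38). Of its exon bases 78.8% are shared with Gm10143 on the opposite strand, which had 157 reads, and whether counting used strand is not given in the sources used here, so its level is uncertain.

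Among the nucleotide supply genes Rrm1 (chromosome 7, 102441695 to 102469771, plus strand) had the lowest log2 fold change of all 42. It had 133, 112 and 107 CPM in D29H and 144, 155 and 189.9 CPM in labelled knockout (log2 fold change -0.47, SE 0.12, edgeR adjusted p 0.0215). Rrm2, the small reductase subunit that is made in S phase, had 236, 193 and 207 CPM against 231, 254 and 303 CPM. Its groups overlapped through D29H replicate 1, and its log2 fold change, -0.31 (SE 0.12), was not called, at an adjusted p of 0.116. Thymidylate synthase (Tyms) had 57.8, 58.7 and 56.3 CPM against 66.8, 67.4 and 60.0 CPM, groups that did not overlap whose difference was not called (-0.17, SE 0.10, edgeR adjusted p 0.286). Thymidine kinase 1 (Tk1) overlapped, at 125, 99.2 and 117 CPM against 139, 132 and 117 CPM. Of the chromatin assembly genes, Chaf1b had -0.37 (SE 0.12, adjusted p 0.0669) with separate groups, and Chaf1a had 47.9, 47.8 and 51.3 CPM against 49.1, 56.5 and 55.9 CPM, overlapping, with -0.14 (adjusted p 0.414).

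**Figure D2:**
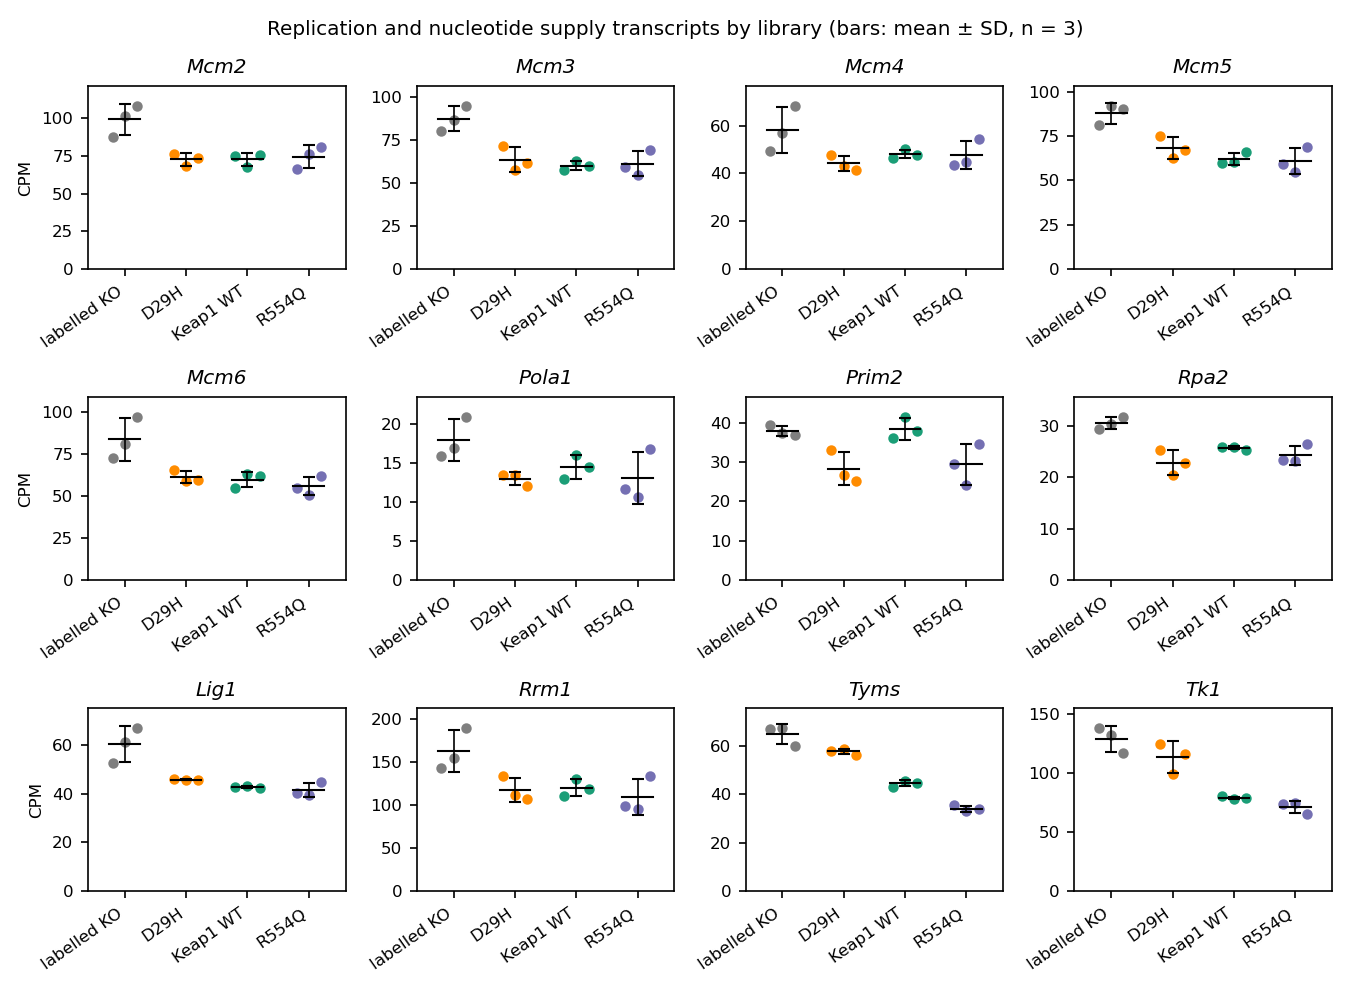
CPM (y axis, from 0) of 12 of the genes in each library, 3 points per group, with bars for the mean ± SD. The 10 genes called in D29H are lower in each D29H library than in each labelled-knockout library, and Tyms is lower in each R554Q library than in each Keap1 wild-type library.

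The number of calls depended on which libraries were fitted. All 10 kept a log2 fold change below zero in each fit that left out 1 library, but each was called in only 2 to 4 of the 6 such fits. Without D29H replicate 2, and without D29H replicate 3, none of the 42 was called, and calls over all genes fell as well, from 682 to 94 and 82. Without labelled-knockout replicate 2 there were 3 calls and without its replicate 3 there were 5, beside 0.512% and 0.819% of all genes called lower. Without D29H replicate 1 there were 13, while calls over all genes rose to 2192, with 6.83% called lower. D29H replicate 2 had the highest share of mitochondrial reads, 1.77% beside 0.725% to 1.09% in the other 11 libraries. In the chi-square of counts per degree of freedom, D29H replicate 1 was the farther from both others (25.1 from replicate 2 and 16.5 from replicate 3, which stood 10.6 apart). Labelled-knockout replicate 3 stood apart likewise (23.6 from replicate 1 and 15.3 from replicate 2, which were 5.20 apart). It also had the fewest counted reads of all libraries, 14963004. Deviations from the group mean across genes had correlations with GC content of 0.25 in D29H replicate 3, 0.19 in labelled-knockout replicate 2 and -0.19 in its replicate 3. With log gene length they were 0.17 in D29H replicate 2, -0.17 in labelled-knockout replicate 1 and 0.16 in its replicate 3. With GC content and gene length offsets 8 of the 10 genes were still called. The parts of the mitochondrial share, of depth and of these distances in the calls were not tested. The authors' deposited table, which used DESeq2 per the submitters' processing notes, listed the same 10 genes with an adjusted p under 0.05.

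**Figure D3:**
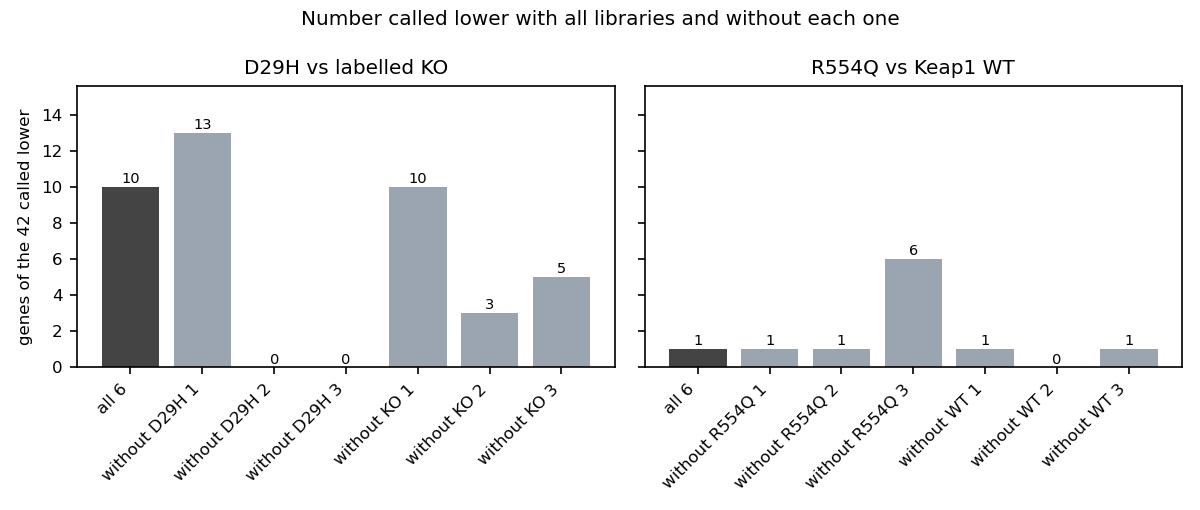
Number of the 42 genes called lower (y axis; edgeR, adjusted p under 0.05) with all 6 libraries of a comparison and without each library in turn (x axis). The count runs from 0 to 13 around 10 in the Nrf2 comparison and from 0 to 6 around 1 in the Keap1 comparison.

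In R554Q cells 1 of the 42 transcripts fell against Keap1 wild type, Tyms, and none rose. Tyms (chromosome 5, 30058202 to 30073617, minus strand), which makes the thymidine nucleotide, had 35.4, 32.9 and 33.7 CPM in R554Q and 43.2, 45.5 and 44.7 CPM in wild type. The groups were far apart for their spread, with a log2 fold change of -0.38 (SE 0.08, edgeR adjusted p 0.0118). Over all 14128 genes tested 2.4% were called lower and 3.77% higher, so 1 of 42 is near the background. Of the 42 genes 33 had a log2 fold change below zero, with a median of -0.09, where 50.1% of all genes tested lay below zero. In 10 the R554Q libraries lay wholly below and in 1, Pola2, wholly above wild type, beside 14.2% and 13.3% of all genes tested.

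Values of the MCM ring, most of which fell in D29H, lay near zero here. Its 6 genes had log2 fold changes from -0.09 to 0.06, with adjusted p of 0.590 or higher in edgeR. Mcm2 had 66.3, 76.7 and 81.3 CPM in R554Q against 75.3, 67.8 and 75.6 CPM in wild type, wholly overlapping, and Mcm5 had 59.4, 55.0 and 69.1 CPM against 59.6, 60.7 and 66.1 CPM. Lig1 had 40.2, 39.3 and 44.8 CPM against 42.5, 42.9 and 42.1 CPM. Rrm2 had 218, 198 and 233 CPM against 211, 219 and 220.5 CPM, and Rrm1 had 98.8, 95.4 and 133 CPM against 111, 131 and 119 CPM. In both reductase genes the groups overlapped, and R554Q replicate 3 was the highest of the 6 libraries. The same library was the highest in Pola1, at 11.6, 10.6 and 16.8 CPM against 12.9, 16.0 and 14.5 CPM, and in Rpa2, at 23.3, 23.1 and 26.5 CPM against 25.9, 26.0 and 25.4 CPM. Pole had 26.4, 23.9 and 26.2 CPM against 27.0, 28.7 and 24.9 CPM, Chaf1a had 48.2, 52.6 and 46.9 CPM against 51.1, 47.3 and 50.3 CPM and Fen1 had 0.751, 1.18 and 0.988 CPM against 1.75, 0.456 and 0.910 CPM, all overlapping. Cdc6 was lower in each R554Q library, at 13.7, 12.8 and 14.2 CPM against 14.8, 15.0 and 15.0 CPM, and was not called (-0.14, SE 0.11, edgeR adjusted p 0.458).

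The genes nearest to a call after Tyms were Prim2, Orc6 and Pole2. Prim2 had 29.6, 24.1 and 34.6 CPM in R554Q and 36.0, 41.6 and 37.8 CPM in wild type (log2 fold change -0.38, SE 0.11, edgeR adjusted p 0.0533). Its libraries did not overlap in either mutant comparison. Orc6 had -0.26 (SE 0.08, adjusted p 0.0674). Pole2, an accessory subunit of polymerase epsilon, had 7.36, 5.62 and 8.95 CPM against 9.19, 10.9 and 10.3 CPM, the lowest log2 fold change of the 42 (-0.47, SE 0.16, adjusted p 0.0793). The highest were in Pold1, at 61.4, 61.9 and 57.0 CPM against 58.2, 47.3 and 56.5 CPM (0.16), Pola2, at 27.2, 27.7 and 26.2 CPM against 23.6, 24.3 and 25.8 CPM (0.15), and Cdt1, at 28.7, 27.0 and 25.5 CPM against 24.7, 22.6 and 27.2 CPM (0.13), none called. Pcna had 119, 109 and 109.6 CPM against 126, 127 and 131 CPM and Tk1 had 73.9, 74.7 and 65.3 CPM against 80.3, 78.5 and 78.9 CPM. In both, the groups did not overlap and the edgeR adjusted p was 0.169 and 0.277. The value of Pcna carries a doubt about counting that is given below.

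The single call and its neighbours also depended on which libraries were fitted. Without wild-type replicate 2 Tyms had an adjusted p of 0.0657 and no gene of the 42 was called. Without R554Q replicate 3, the R554Q library highest in Mcm2, Mcm5, Prim2 and Pole2, 6 were called: Tyms, Prim2, Pole2, Orc6, Pola1 and Rrm1, with log2 fold changes from -0.64 to -0.28. Lower calls over all genes rose as well in that fit, to 9.33% of those tested, and came to 0.334% without wild-type replicate 2. Deviations from the group mean across genes were correlated with GC content in several Keap1 libraries, at -0.31 in R554Q replicate 3, -0.37 in wild-type replicate 2 and 0.29 in wild-type replicate 3. With log gene length the correlation was 0.26 in R554Q replicate 3 and 0.10 in wild-type replicate 2. With GC content and gene length offsets 2 of the 42 were called. The authors' deposited table listed 3 of the 42 with an adjusted p under 0.05, Tyms, Prim2 and Orc6, all lower.

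The mutant comparisons were set against each other, with the R554Q fold change subtracted from that of D29H. This contrast is called the difference between the alleles, but its controls are unlike. That of D29H is described as a functional knockout and that of R554Q as functionally wild type for Keap1. The controls also differed in these genes, as given below, so the contrast is not one of the alleles alone. None of the 42 passed in edgeR, beside 0.027% (4 of 14794) of all genes tested. At an unadjusted p under 0.05, 13 of the 42 had a lower value in the D29H comparison and 0 a higher one, beside 5.18% lower and 6.1% higher over all genes tested. DESeq2 and limma likewise called none of the 42 after adjustment. The lowest adjusted p was that of Mcm2, with a difference of -0.48 (SE 0.14, adjusted p 0.211). Mcm3 had the same difference, -0.48 (SE 0.14, adjusted p 0.237), and Tyms had 0.22 (SE 0.11, adjusted p 0.487). A different response of the ring in the D29H and R554Q comparisons was therefore not shown, and neither was a like one.

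The 42 genes were also set side by side between the empty-virus groups. In labelled knockout 22 of the 42 transcripts were higher than in Keap1 wild type and 1, Rpa3, was lower, while over all genes tested 9.58% were higher and 10.1% lower in edgeR. The median log2 difference of the 42 was 0.31. The largest were in Tk1 (0.71, SE 0.09, adjusted p 9.2e-06), at 139, 132 and 117 CPM in labelled knockout and 80.3, 78.5 and 78.9 CPM in wild type, and in Pcna (0.66, SE 0.09, adjusted p 1.4e-05). The groups were far apart in both genes. Cdt1, Prim1, Pold1 and Pole2 differed by 0.55, and Tyms and Mcm3 by 0.54, all called. Rpa3 went the other way, by -0.50 (SE 0.13, adjusted p 0.00951), at 26.0, 23.8 and 19.1 CPM against 33.1, 31.6 and 33.4 CPM. By role, 7 of 12 helicase, 6 of 9 polymerase and primase, 4 of 6 clamp and loader, 3 of 4 nucleotide supply and 1 of 4 licensing genes were higher. These groups carry different alleles and are in different tables, so allele, culture and any batch cannot be told apart in this comparison. Summed fibroblast, macrophage, neural and epithelial markers, given above, did not overlap between these groups either, and their part was not tested. It shares its labelled-knockout libraries with the D29H comparison and its wild-type libraries with the R554Q comparison, so its values are no separate evidence on either.

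The value of Pcna in that comparison, and in the R554Q comparison, carries a doubt about counting. A gene named as a Pcna pseudogene, Pcna-ps2, looked up after the values were seen, had 0.670 to 1.96 CPM in the Nrf2 libraries. It had 16.4 to 20.2 CPM in R554Q and 22.5 to 28.7 CPM in Keap1 wild type, without overlap. How reads that fit both were assigned is not given in the sources used here. With the reads of both genes added, the level was 204 ± 19.9 CPM (SD, n = 3) in labelled knockout and 153 ± 3.80 CPM (SD, n = 3) in wild type, a ratio of 1.34 in place of 1.58 for Pcna alone. In R554Q the level with both added was 132 ± 7.26 CPM (SD, n = 3). Chaf1a and Gins2 share 52.5% and 67.3% of their exon bases with genes on the opposite strand (Ubxn6 and Gse1), and their values are uncertain for the same reason as that of Fen1. In all, 13 of the 42 share exon bases with a gene on the opposite strand. Smaller shares lie with partners of many more reads, 12.7% of Rfc4 with Eif4a2 (83289 reads beside 3884), 10.7% of Rfc5 with Wsb2 (77656 beside 10053), 6.93% of Orc6 with Vps35 (70352 beside 12537) and 5.37% of Fen1 with Tmem258 (19995 beside 242), which leaves these values uncertain too.

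Across the 4 groups, 35 of the 42 genes had their highest mean in labelled knockout and 24 had their lowest in R554Q. The D29H libraries stood between the labelled-knockout and the Keap1 libraries. The median log2 deviation of the 42 genes from their 12-library mean was 0.18, 0.23 and 0.30 in labelled knockout and 0.05, -0.05 and -0.02 in D29H. It was -0.12, -0.05 and -0.06 in Keap1 wild type and -0.16, -0.24 and -0.07 in R554Q. The labelled-knockout libraries were thus apart from the rest, whereas D29H replicate 2 reached the level of Keap1 wild-type replicate 2. Summed over the 42 genes, the level was 2503 ± 91.1 CPM in labelled knockout, 2099 ± 128 CPM in D29H, 1960 ± 37.8 CPM in Keap1 wild type and 1860 ± 93.1 CPM in R554Q (SD, n = 3 each).

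**Figure D4:**
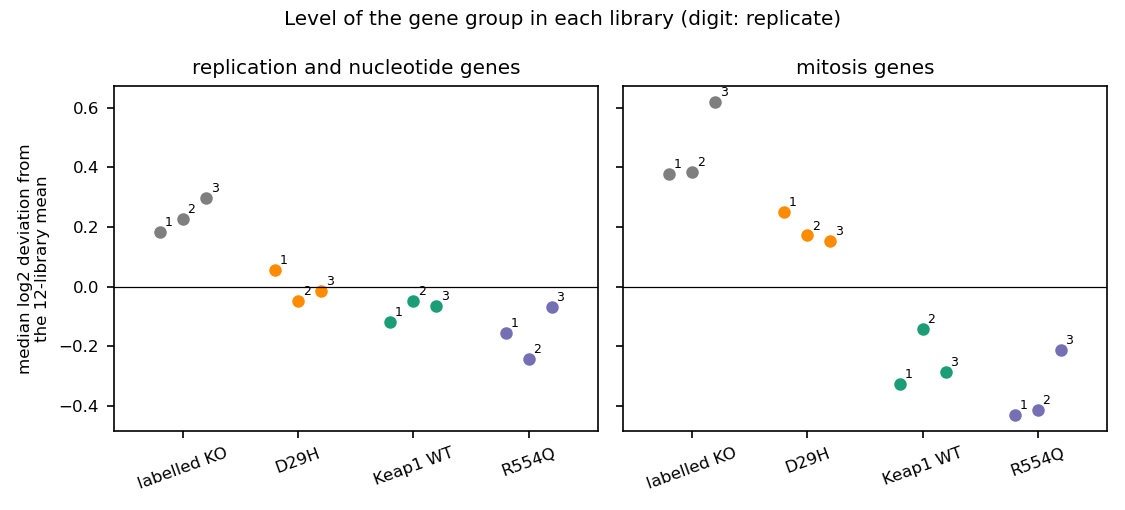
Median log2 deviation from the 12-library mean (y axis) of the 42 genes (left) and of 26 mitosis genes (right) in each library, with the replicate number beside each point. The labelled-knockout libraries are highest in both panels, and the mitosis genes are spread more widely between the Nrf2 and Keap1 libraries.

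Levels between genes are compared per length, in the FPKM the authors deposited. Pcna was the most abundant of the 42 in D29H (116 FPKM) and labelled knockout (135 FPKM), and Rrm2 in R554Q (97.9 FPKM) and Keap1 wild type (95.0 FPKM). The distance between both genes was smaller than the sum of their SDs in D29H and in labelled knockout. In Keap1 wild type the order turned on the doubt about Pcna-ps2, since with the reads of both added Pcna had 96.6 ± 2.31 FPKM (SD, n = 3), within the spread of Rrm2. The median gene had 14.5, 16.5, 12.1 and 12.8 FPKM in D29H, labelled knockout, R554Q and wild type. In Keap1 wild type Rrm2 and Pcna (80.9 ± 0.953 FPKM) were followed by Rpa3 (46.1 ± 1.10 FPKM), Gins4 (43.7 ± 1.85 FPKM), Rfc2 (34.5 ± 0.236 FPKM) and Orc6 (32.6 ± 1.67 FPKM; SD, n = 3 each). Rpa3 and Gins4 did not differ beyond their spread, nor did Rfc2 and Orc6. The MCM ring ran from 24.2 FPKM in Mcm7 to 12.9 FPKM in Mcm4, whose subunits act in equal number. The lowest were Cdc6 (2.99 FPKM), Mcm10 (2.88 FPKM), Pola1 (2.60 ± 0.275 FPKM) and Fen1 (0.421 ± 0.269 FPKM), of which Cdc6 and Mcm10 lay within 2 SD of the Pola1 mean. Pola1 was lower than its partner Pola2 (9.73 FPKM in wild type) in each group.

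**Figure D5:**
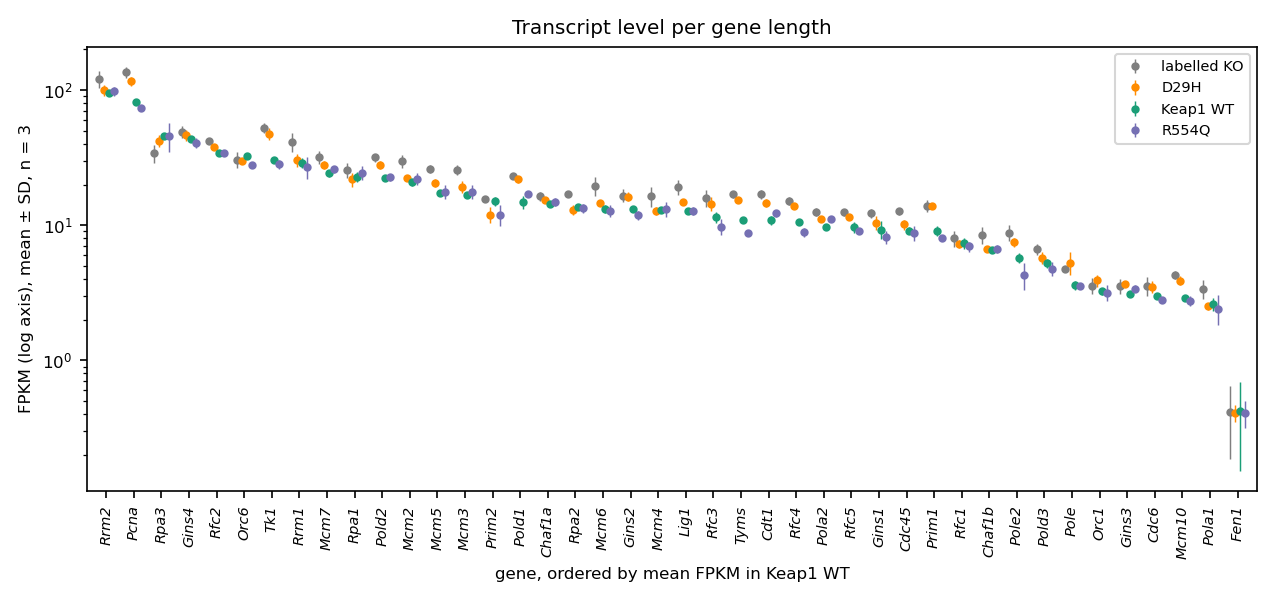
FPKM (y axis, log scale; mean ± SD of 3 libraries) of each of the 42 genes in the 4 groups, ordered by the mean in Keap1 wild type. Rrm2 and Pcna lie at the top, Fen1 lies far under the rest, and the labelled-knockout points are the highest for most genes.

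The other genes of these pathways were read from longer lists, whose counts stand beside the shares of all genes given above (1.28% lower in D29H and 2.4% in R554Q, with 49.9% and 50.1% below zero). Of 39 further replication genes none was called in D29H, at 31 below zero and a median log2 fold change of -0.12, and in R554Q 2 fell, Orc4, a subunit of the origin recognition complex (-0.40, adjusted p 0.00940 in edgeR), and Tipin, of the fork protection complex (-0.40, adjusted p 0.0121). At an unadjusted p under 0.05, 7 of the 39 had a lower and 0 a higher level in D29H, beside 10.3% lower and 12.6% higher over all genes tested. Of 32 further nucleotide genes 4 fell in D29H: Paics (-0.46), Ppat (-0.44) and Adsl (-0.37), enzymes of purine synthesis, and Prps1 (-0.37), which makes the ribose phosphate donor of purine and pyrimidine nucleotides, with adjusted p from 0.0296 to 0.0493. Other purine synthesis genes of the list, among them Gart, Pfas and Atic, were not called (these 3 and Adsl were named after their values were seen). In R554Q 2 others fell, Cmpk1 (-0.33), a pyrimidine kinase, and Dut (-0.28), which removes dUTP and gives the precursor that Tyms uses. Of 26 G1/S regulators Ccne1 (cyclin E1, -0.49, adjusted p 0.00830) and Rbl1 (the pocket protein p107, -0.48, adjusted p 0.0160) fell in D29H, and Ccne2 (cyclin E2, -0.44, adjusted p 0.00974) fell in R554Q. E2f1, an activator of these genes, was not called in either (-0.16 and 0.29).

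Among all genes 1.28% were called lower in D29H, and in R554Q 2.4% were called lower and 3.77% higher. Of 7 CDK inhibitor genes Cdkn1c fell in D29H (-0.38, adjusted p 0.0483 in edgeR), and Cdkn2a (0.44, adjusted p 0.0121) and Cdkn2b (0.40, adjusted p 0.00989), whose products hold cells in G1, rose in R554Q. Cdkn2a had 193, 215 and 178 CPM in R554Q and 145, 125 and 162 CPM in wild type, with no overlap. Cdkn1a, the p53 target p21, was not called in either comparison (-0.02 and 0.11). Of 26 mitosis genes 3 fell in D29H, Ndc80 (-0.53), Top2a (-0.46) and Aurka (-0.38), and all 26 were below zero, with a median of -0.30, where 49.9% of all genes lay below zero. In R554Q 1 fell, Cdk1 (-0.34), which is near the share of all genes called lower, and the median was -0.12. Against Keap1 wild type, all 26 were called higher in labelled knockout, by 0.47 to 1.02 on the log2 scale, beside 9.58% of all genes. The mitosis genes thus stood beside the 42 genes in the same order of groups, and their part in the result was not tested.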

How the data were processed

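The members and the other gene lists were chosen with earlier results of these data known, so no list is independent evidence of its direction. The authors deposited 2 tables (Nrf2 and Keap1 groups, 6 libraries each) with raw read counts per gene and FPKM, per the file headers. The same deposited tables hold the authors' group means (a normalised signal), log2 fold changes and p-values, which were used only where named. The submitters' processing notes name STAR, DESeq2 and mm10. Versions, counting tool, annotation release and strand setting are not given in the sources used here. All 42 genes lay at overlapping positions in GENCODE M21, 32 with the same ends.

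Counts were tested in R 4.3.3 with edgeR 4.0.16 (filterByExpr, TMM factors, glmQLFit, glmQLFTest; Benjamini-Hochberg over all genes tested; threshold 0.05), each table on its own 6 libraries, and the difference between alleles and the control comparison on all 12 libraries over genes in both tables. All 42 genes passed the filter in both tables. The SE comes from the log2 fold change and the F statistic. Library deviations are of log2(CPM + 0.5). Values per library are given for genes called in either mutant comparison, for 15 anchor genes and for the 3 highest and 3 lowest log2 fold changes of each mutant comparison. The steps were tested on simulated counts for all genes. A rise of 1.3-fold was recovered for 33% of changed genes in the Nrf2, 47% in the Keap1 and 6% in the 12-library design. A 2-fold rise was recovered for 100% in each. The changed genes were drawn only from those with higher counts, and no falls were simulated. These shares therefore do not hold for genes of few reads, such as Fen1. Replicate libraries differed by more than sampling noise (chi-square per degree of freedom 4.95 to 25.1). Alternatives were RLE and upper-quartile factors, no low-count filter or one at a mean of 50, limma-trend (limma 3.58.1), DESeq2 1.42.0, GC and length offsets, replicate blocks, thresholds of 0.01 and 0.1 and leaving out each library.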

Additional observations from a re-analysis of the deposited data

How the results depend on the processing

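In the Nrf2 comparison the 10 genes called lower became 0 at an adjusted p under 0.01 and 0 to 13 when 1 library was left out (0 without D29H replicate 2 or 3, 3 without labelled-knockout replicate 2, 5 without its replicate 3). RLE, upper-quartile factors, no filter, a mean count of at least 50, DESeq2, limma, GC and length offsets and all 12 libraries in 1 fit gave 8 to 12. In the Keap1 comparison the 1 gene called lower became 0 at 0.01, 4 at 0.1, 2 with DESeq2, 2 with GC and length offsets, 3 with no filter, and 0 (without wild-type replicate 2) to 6 (without R554Q replicate 3) with 1 library left out. The causes were not tested. The replicate block gave 10, 1 and, for the difference between the alleles, 0 genes. Libraries with the same title number did not deviate together (correlations -0.10 to -0.03 in the Nrf2 and -0.22 to 0.04 in the Keap1 table), so samples were not paired by it. By the number in the description label the Nrf2 table has 2 pairs, at 0.02 and 0.10, too few to settle pairing. A replicate block by the number in the description label, which leaves 1 residual degree of freedom in the Nrf2 table, gave 23 lower and 1 higher, among 3941 calls over all genes. The median control difference of 0.31 ran from 0.28 to 0.38 (the latter without labelled-knockout replicate 1) with 1 library left out, and 16 to 27 genes were called higher. Of 1794 values under alternatives for the 24 genes with values per library 1646 kept direction and side of the threshold, 55 lost and 27 gained a call, 66 uncalled values changed sign, and 0 called values did. The other 18 genes gained 14 calls in the Nrf2 comparison (9 genes) and 2 in the Keap1 comparison (Gins2 and Orc6). Recovery of 1.3-fold changes, simulated only as rises in genes with higher counts, limits what 3 libraries per group at this depth and spread can show.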
